A study of Mus musculus with 12 samples.

Results

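The genes described here are 39 of the 16335 in the deposited expression table: 34 soluble enzymes, cofactors and membrane proteins of the lysosome, granulin and GPNMB, and the transcription factors Mitf, Tfeb and Tfe3. Members were chosen by gene symbol from a fixed list, and all 39 were found. The rule holds no measured value, but the list was made with earlier results of these data known. RNA was sequenced from tumors of BVMA01R, a mouse sarcoma cell line of the genotype Myf5-Cre;p53-/-;Ass1-/-, with female sex and strain C57BL/6J in the labels. The libraries were made from total RNA of frozen tissue after removal of ribosomal RNA. Each of 4 groups had 3 libraries. Tumors were untreated, were given chloroquine or ADI-PEG20 alone, or were given both drugs (ADI-PEG20 plus chloroquine). Every tumor, controls included, came from this 1 line with its alleles, so the values describe 1 model. In it, Cre is driven by Myf5, a gene of muscle progenitors. The labels give no dose, schedule, tumor age or animal number. Whether the 3 libraries of a group stem from 3 animals is not stated, and a p-value then reflects only the spread among these samples, which may be technical. Values are levels in log2 CPM (log2 of reads scaled to library size), and a difference is between group means on that scale. Libraries are numbered 1 to 3 in each group as in the labels, and those given both drugs are called doubly treated. Gene positions are on GRCm38.

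Lysosomes are acidic organelles in which hydrolases break down proteins, sugars, lipids and nucleic acids brought in by autophagy and endocytosis. The MiT factors bind E-box motifs in the promoters of many lysosomal genes. The kinase complex mTORC1, which is active on the lysosome when amino acids are plentiful, holds TFEB and TFE3 in the cytoplasm, so much of their activity is set by where the protein is and not by the level of its transcript. Chloroquine is a weak base that collects in lysosomes and raises their pH. ADI-PEG20 is a pegylated arginine deiminase that breaks down arginine in the circulation, and cells without argininosuccinate synthase (Ass1) cannot rebuild arginine from citrulline. Macrophages are rich in lysosomes. Of the list, Ctss, Ctsc, Ctsh, Ctsz, Lipa, Grn and Gpnmb are taken as the 7 macrophage-rich members, and 18 further hydrolases as widely expressed. In bulk tumors, fewer or more cells of a type cannot be told apart from less or more RNA per cell.

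Promoters are shown because some members hold motifs there of the kind MiT factors bind. RefSeq promoters (250 bases before to 50 after a gene's start, GRCm38.p6) were matched by symbol for 35 of the 39, all but Ctsb, Ctsh, Npc1 and Asah1. The E-box core CACGTG was on either strand of at least 1 promoter in 12 of the 35 (34.3%), against 8.09% of 27025 genes in the same table. These were Arsa, Cln3, Ctsa, Ctsd, Ctsl, Gaa, Gla, Glb1, Lamp1, Mcoln1, Naglu and Sgsh. The longer TCACGTGA, which contains CACGTG, was in Cln3, Ctsa, Ctsd, Gla and Mcoln1 (14.3%, against 1.12% of genes). The related TCATGTGA was in Ctss, Gla, Grn, Ppt1 and Tpp1 (14.3%, against 1.15%). A match is a description of letters and not a measured binding site. The windows below, each 5′ to 3′ on the gene's strand with matches in capitals, come from promoters with several core motifs or the longer form. They cover the 100 bases up to the start for Lamp1 and Mcoln1, and 100 bases farther upstream for Ctsd and Gla: Lamp1 (chr8:13159061-13159160, plus strand), Mcoln1 (chr8:3500419-3500518, plus strand), Ctsd (chr7:142387858-142387957, minus strand) and Gla (chrX:134601156-134601255, minus strand).
Lamp1: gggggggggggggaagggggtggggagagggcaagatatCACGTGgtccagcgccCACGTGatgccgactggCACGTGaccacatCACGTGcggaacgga
Mcoln1: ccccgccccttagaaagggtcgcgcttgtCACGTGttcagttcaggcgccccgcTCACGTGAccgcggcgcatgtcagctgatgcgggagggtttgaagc
Ctsd: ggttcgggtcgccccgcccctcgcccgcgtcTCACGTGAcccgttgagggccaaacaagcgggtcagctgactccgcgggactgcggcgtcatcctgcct
Gla: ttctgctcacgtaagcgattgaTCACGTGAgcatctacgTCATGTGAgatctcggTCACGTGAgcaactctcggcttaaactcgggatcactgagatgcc

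Lamp1 held 4 copies of CACGTG within 61 bases of its start, and in Gla the 3 long matches began at positions -228, -211 and -195 from it. The 3 members with TCATGTGA just downstream of the start are shown as the 30 bases from the start itself: Tpp1 (chr7:105752206-105752235, minus strand), Ppt1 (chr4:122836227-122836256, plus strand) and Ctss (chr3:95526786-95526815, plus strand). In Tpp1 the motif occurs once on each strand, and TCACATGA is its reverse complement.
Tpp1: atgcTCATGTGActtaTCACATGActacag
Ppt1: acagtccccgcggTCATGTGAttgctaaga
Ctss: ttcctcattgtggatgctTCATGTGAcaag

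The recovered total was 15501998 to 28410940 reads per library, and members had 146 to 32457 reads in a library, none at 0. Ass1 gave 153 to 397 reads and Trp53 326 to 756 in all libraries. A total over a gene does not tell the deleted exons from the rest. Nor does it tell cells of the line from other cells of the tumor, so these reads do not check the genotype. Mesenchymal markers such as Vim and collagens averaged between 11.57 and 12.59 log2 CPM in every library, and Myf5 had 154 to 1360 reads. ADI-PEG20 1 stood apart, with 120 genes at 0 reads (7 to 43 elsewhere) and the highest skeletal muscle marker mean, 7.12 log2 CPM. The count and median of the members without it are given below, while differences of single members include it unless stated. In limma's test, 0 of 16335 genes passed an adjusted p of 0.05 in any of the 6 comparisons (0.00% called in each), so no member is described as changed. Counts at an unadjusted p under 0.05 are given in their place.

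With both drugs, most of the lysosomal genes sat above their untreated level by modest amounts. 35 of 39 members were higher, with a median log2 difference of 0.25, while the median of all genes was 0.01 and 50.8% of them were higher. At an unadjusted p under 0.05, 10 members were higher and 0 lower, against 4.70% and 3.95% of all genes. The 3 libraries of each group did not overlap for 15 members that were higher and 0 that were lower, against 7.46% and 7.92% of all genes. The mean over the 39 members went from 6.34 log2 CPM (SD 0.08, n = 3) without treatment to 6.63 (SD 0.08, n = 3) with both drugs. Only Neu1, Mcoln1, Cd63 and Glb1 were lower, and none of these at an unadjusted p under 0.05. Macrophage markers were higher in the same libraries. 18 of 19 were above untreated, and their summed level ran from 1359 to 1592 CPM without treatment and from 1992 to 2511 CPM with both. All 9 skeletal muscle markers were lower (median -2.14), at a summed 66.1 to 118 CPM against 61.1 to 1808 CPM without treatment, ranges that overlap. All 6 adipocyte markers listed were higher, at 48.7 to 86.6 against 26 to 45.3 CPM, with differences from 0.11 (Fabp4) to 1.17 (Lpl). T cell markers were higher for 7 of 8 and dendritic cell markers for 6 of 6, at 16.2 to 28.3 against 10.4 to 20.1 CPM and 59.7 to 87.7 against 45 to 61.9 CPM. Keratinocyte markers summed to 42.7 to 72.9 against 4.8 to 39.8 CPM, without overlap, with differences from -0.72 (Krt5) to 2.91 (Krt14). Myogenic markers summed to 120 to 154 against 254 to 471 CPM, also without overlap, with differences from -1.34 (Des) to -0.42 (Myog). The part of these cell types in the members' values was not tested.

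With ADI-PEG20 alone most members were also higher, with more spread between libraries. 33 of 39 members were higher than untreated, with a median of 0.17, where 48.7% of all genes were higher and their median was -0.01. At an unadjusted p under 0.05, 11 were higher and 1 (Glb1) lower, against 5.17% and 3.13% of all genes. Libraries did not overlap for 7 higher and 1 lower, against 5.57% and 4.54%. The mean over members was 6.55 (SD 0.17, n = 3), and ADI-PEG20 3 was the highest library at 6.74. Without it 24 of 39 members were higher with a median of 0.06. Without ADI-PEG20 1 the count was 34 with a median of 0.27, and without ADI-PEG20 2 it was 34 with a median of 0.31. Macrophage markers were higher for 17 of 19, at a summed 1726 to 2271 CPM. T cell markers were higher for 8 of 8, at 26.7 to 30.4 CPM, dendritic cell markers for 6 of 6, at 64.2 to 86.8 CPM, and adipocyte markers for 6 of 6, at 42.7 to 150 CPM. The macrophage, T cell and dendritic cell sums did not overlap the untreated ones. Nor did the neutrophil sum, at 25.7 to 33.0 against 17.8 to 24.3 CPM, with differences from -0.82 (S100a8) to 0.68 (Csf3r). Keratinocyte sums overlapped, at 33.3 to 39.2 against 4.8 to 39.8 CPM, with differences from -0.03 (Lor) to 2.17 (Krt14). Some T cell markers had few reads in the 12 libraries, such as Cd3d (2 to 30) and Cd3g (0 to 56). Skeletal muscle markers were lower for 6 of 9, at 68.5 to 2483 CPM. The part of these cell types was not tested.

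With chloroquine alone the list was near its untreated level. 21 of 39 members were higher and 18 lower, with a median of 0.03, and 49.3% of all genes were higher. At an unadjusted p under 0.05, 0 members were higher and 0 lower in limma's test, against 2.06% and 1.33% of all genes. Libraries did not overlap for 2 members that were higher (Scarb2 and Npc1) and 2 that were lower (Ctsl and Naglu), against 3.69% and 3.72%. The mean over members was 6.40 (SD 0.11, n = 3). 13 of 19 macrophage markers were higher, at a summed 1302 to 1680 CPM. T cell markers were higher for 8 of 8 and dendritic cell markers for 6 of 6, at 14.8 to 42.4 and 38.1 to 93.6 CPM, and in both lists chloroquine 3 was the highest library. Skeletal muscle markers were higher for 7 of 9 and adipocyte markers for 1 of 6. The part of these cell types was not tested. The 3 comparisons share the untreated libraries, so their values are not independent of each other.

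**Figure D1:**
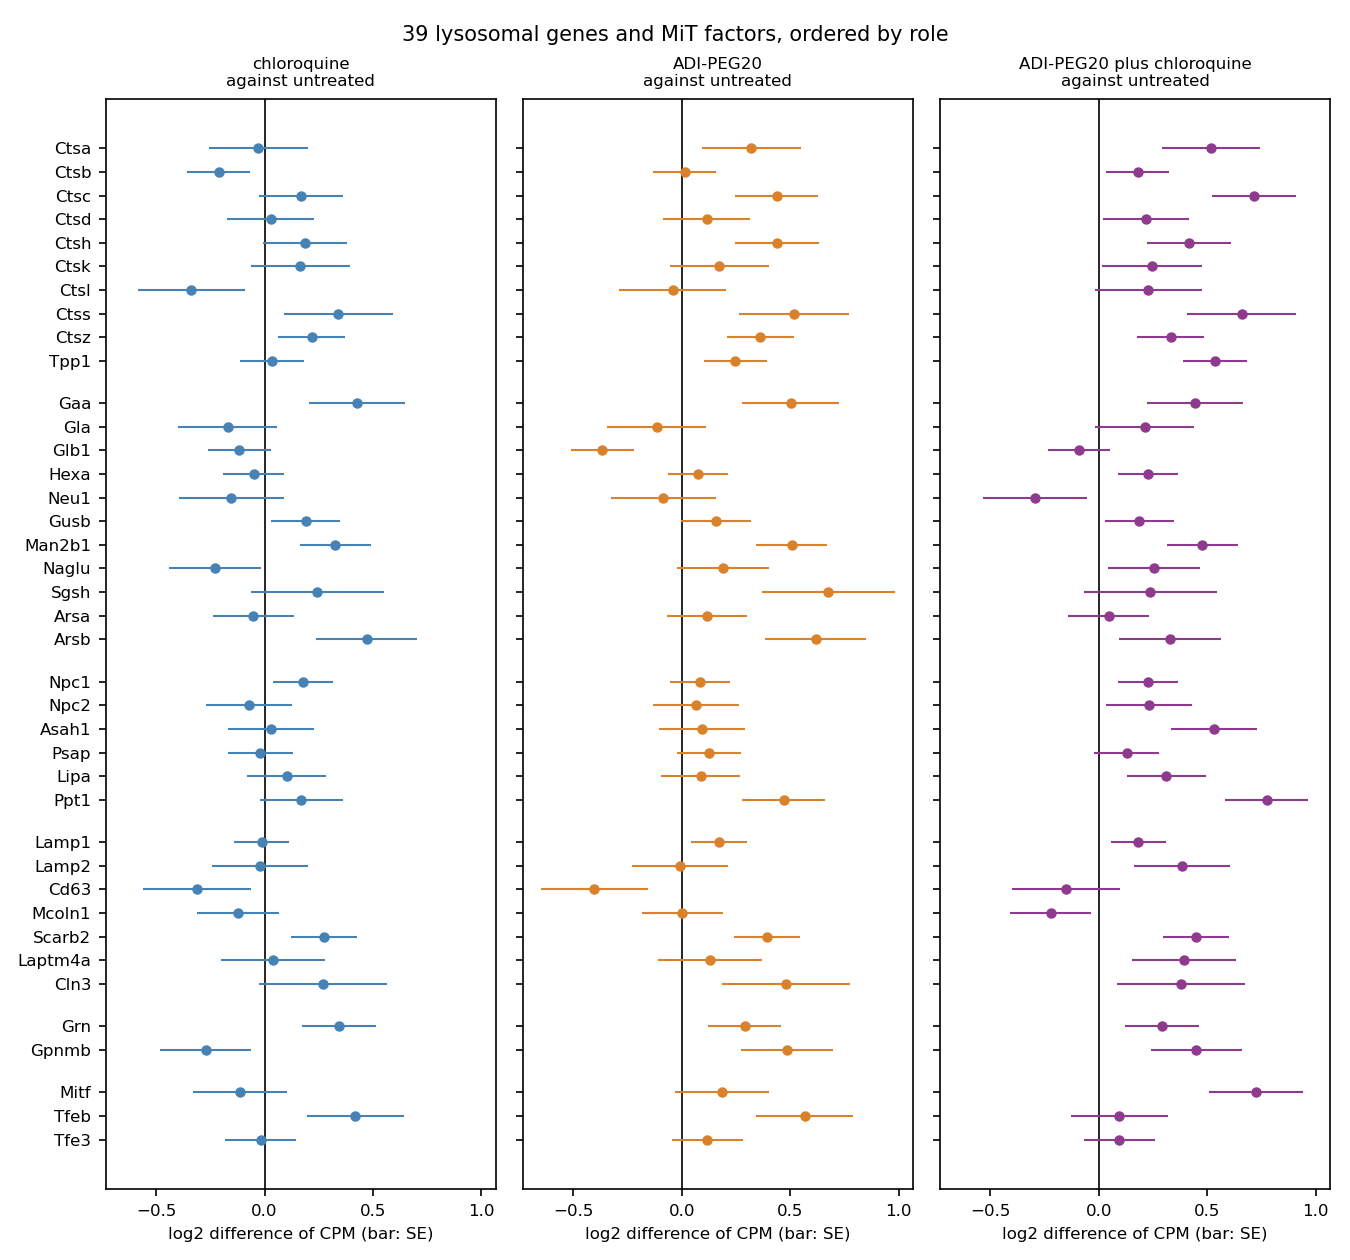
Log2 difference of CPM from untreated tumors (x axis) for the 39 members (rows, grouped by role) with chloroquine, ADI-PEG20 or both drugs. Points are differences of group means of 3 libraries and bars are 1 standard error of the limma fit. With both drugs 35 of 39 points lie right of 0, with ADI-PEG20 33 and with chloroquine 21.

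The combination was also set against each drug alone. Against chloroquine, 32 of 39 members were higher (median 0.19, 51.4% of all genes). Of these 10 had an unadjusted p under 0.05 and 0 were lower (3.11% and 3.67% of all genes), and libraries did not overlap for 13 higher and 0 lower (8.78% and 9.57%). Against ADI-PEG20, 26 of 39 were higher (median 0.07, 51.1% of all genes), with 2 higher at an unadjusted p under 0.05, Mitf and Asah1, and 0 lower (1.41% and 2.01% of all genes). Libraries did not overlap for 1 higher (4.70%) and 1 lower (4.47%). Both comparisons use the same doubly treated libraries. All 9 skeletal muscle markers were lower with both drugs than with chloroquine, at a summed 66.1 to 118 CPM against 575 to 789 CPM. Their part was not tested.

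Among the MiT factors, the group mean of Mitf was highest with both drugs and that of Tfeb with either drug alone. Mitf, the factor best known from melanocytes and osteoclasts (chr6:97807052-98021349, plus strand), was 3.53, 3.71 and 3.76 log2 CPM without treatment, 3.58, 3.31 and 3.77 with chloroquine, 3.84, 3.47 and 4.25 with ADI-PEG20, and 4.50, 4.44 and 4.22 with both drugs. All 3 libraries with both drugs lay above every untreated and every chloroquine library, and ADI-PEG20 3 reached into their range. The log2 difference from untreated was 0.73 (SE 0.22, unadjusted p = 0.0051, adjusted p = 0.41) with both drugs, 0.19 with ADI-PEG20 (-0.01 without ADI-PEG20 3) and -0.11 with chloroquine. Against chloroquine, the combination was higher by 0.84 (SE 0.22, unadjusted p = 0.0019, adjusted p = 0.5), a 1.79-fold difference and the smallest p of any member in that comparison. Against ADI-PEG20 it was higher by 0.54 (SE 0.22, unadjusted p = 0.027, adjusted p = 0.89). In the authors' deposited table the log2 fold change of Mitf between the combination and chloroquine is 0.85 (adjusted p = 0.10). None of 6 melanocyte markers (Tyr, Tyrp1, Dct, Pmel, Mlana, Slc45a2) was among the 16335 genes. Among 6 osteoclast markers, Acp5 (153 to 1125 reads), Ocstamp (8 to 127 reads) and Atp6v0d2 (6 to 72 reads) were listed. They differed from untreated by 0.99, 0.33 and -1.53 with both drugs.

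Tfeb, the factor most studied as a regulator of lysosome formation (chr17:47737030-47792419, plus strand), was 4.03, 4.22 and 3.86 log2 CPM without treatment, 4.15, 4.29 and 4.93 with chloroquine, 4.81, 4.49 and 4.52 with ADI-PEG20, and 4.39, 3.86 and 4.15 with both drugs. The ADI-PEG20 libraries lay above all untreated and all doubly treated ones. Chloroquine 3 was the highest of all 12, and the other chloroquine libraries lay beside the highest untreated one. Tfeb differed from untreated by 0.57 (SE 0.22, unadjusted p = 0.024, adjusted p = 0.55) with ADI-PEG20, by 0.42 (SE 0.22, unadjusted p = 0.084, adjusted p = 0.999) with chloroquine and by 0.09 (SE 0.22, unadjusted p = 0.68, adjusted p = 0.93) with both. Without chloroquine 3 the difference for chloroquine was 0.18. The interaction is the effect of ADI-PEG20 in the presence of chloroquine minus its effect without. For Tfeb it was -0.89 (SE 0.32, unadjusted p = 0.014, adjusted p = 0.82), the smallest p among members, with a 95% interval of -1.57 to -0.21. Chloroquine 3 enters this value too, at 4.93 log2 CPM against 4.15 and 4.29 in the other chloroquine libraries. For Mitf the interaction had the other sign, 0.65 (SE 0.31, unadjusted p = 0.053, adjusted p = 0.82). Over the list, 21 members had an interaction above 0 (50.4% of all genes). At an unadjusted p under 0.05, 0 were above 0 and 2 below, Tfeb and Arsb (1.90% and 2.36% of all genes).

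Tfe3, which shares much of TFEB's regulation (chrX:7762560-7775202, plus strand), was 6.38, 6.63 and 6.37 log2 CPM without treatment, 6.46, 6.12 and 6.75 with chloroquine, 6.57, 6.61 and 6.55 with ADI-PEG20, and 6.37, 6.62 and 6.68 with both drugs. The 4 groups overlapped, and the 3 differences from untreated were 0.12 with ADI-PEG20, -0.02 with chloroquine and 0.09 with both, each with an SE of 0.16. Per length of annotated exon, Tfe3 was the most abundant of the 3 in untreated tumors at 9.54 CPM per kb (8.93 to 10.7), followed by Tfeb at 2.91 CPM per kb (2.55 to 3.29) and Mitf at 2.05 CPM per kb (1.86 to 2.18), and the ranges of the 3 genes did not overlap.

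**Figure D2:**
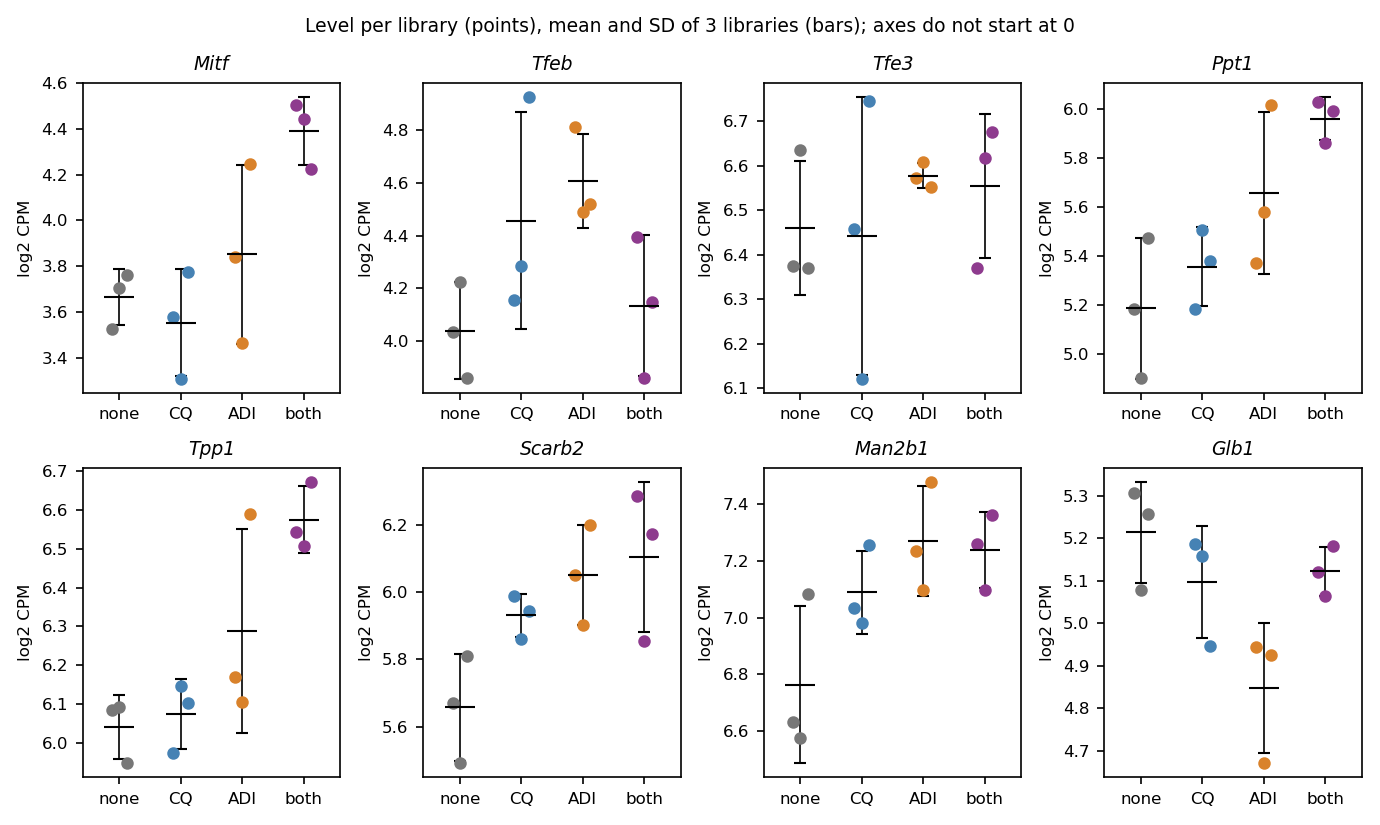
Level in log2 CPM (y axis, not starting at 0) in each of 12 libraries for the 3 MiT factors, Ppt1, Tpp1, Scarb2, Man2b1 and Glb1. Points are libraries without treatment (none), with chloroquine (CQ), ADI-PEG20 (ADI) or both, and bars are the mean and SD of 3. The doubly treated libraries lie above all untreated ones for Mitf, Ppt1, Tpp1, Scarb2 and Man2b1. The mean of Tfeb is highest with the single drugs, but chloroquine replicates 1 and 2 lie below the highest doubly treated library.

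The cathepsins and related peptidases, which degrade proteins in the lysosome, were all above untreated with both drugs. The count was 10 of 10 with a median of 0.37, and 5 were higher at an unadjusted p under 0.05, against 4.70% of all genes. With ADI-PEG20 9 of 10 were higher (median 0.28) and with chloroquine 7 of 10 (median 0.10). Set against chloroquine, 10 of 10 were higher with both drugs, 5 of them at an unadjusted p under 0.05 (3.11% of all genes).

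Tpp1, the tripeptidyl peptidase that clips tripeptides from protein ends (chr7:105744811-105752235, minus strand), was 6.08, 6.09 and 5.95 log2 CPM without treatment, 5.97, 6.15 and 6.10 with chloroquine, 6.17, 6.11 and 6.59 with ADI-PEG20, and 6.54, 6.51 and 6.67 with both drugs. The 3 doubly treated libraries lay close together and above all untreated and chloroquine libraries, and among those with ADI-PEG20 alone replicate 3 stood with them. The difference was 0.53 (SE 0.15, unadjusted p = 0.0028, adjusted p = 0.38) with both against untreated, and 0.50 (SE 0.15, unadjusted p = 0.0044, adjusted p = 0.53) with both against chloroquine. With ADI-PEG20 it was 0.25 (SE 0.15), or 0.10 without ADI-PEG20 3, and with chloroquine 0.03.

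Ctsc, dipeptidyl peptidase 1, which activates serine proteases of immune cells (chr7:88278085-88310888, plus strand), was 6.79, 7.08 and 7.18 log2 CPM without treatment, 6.87, 7.34 and 7.34 with chloroquine, 7.13, 7.42 and 7.82 with ADI-PEG20, and 7.62, 7.68 and 7.89 with both drugs. The doubly treated libraries lay above every untreated and chloroquine library. Its difference from untreated was 0.71 (SE 0.19, unadjusted p = 0.0026, adjusted p = 0.38) with both drugs, 0.44 (SE 0.19) with ADI-PEG20 and 0.17 (SE 0.19) with chloroquine. Ctss, the cathepsin that trims the invariant chain of MHC class II in antigen-presenting cells (chr3:95526786-95556403, plus strand), was 7.34, 6.96 and 7.82 log2 CPM without treatment, 7.40, 7.62 and 8.11 with chloroquine, 7.61, 7.94 and 8.12 with ADI-PEG20, and 8.12, 7.63 and 8.34 with both drugs. Every group overlapped the untreated one through untreated 3. Its differences were 0.66 (SE 0.25, unadjusted p = 0.021, adjusted p = 0.51) with both, 0.52 (SE 0.25) with ADI-PEG20 and 0.34 (SE 0.25) with chloroquine.

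Ctsh, an aminopeptidase of the same family, was 5.36, 5.42 and 5.89 log2 CPM without treatment, 5.63, 5.65 and 5.96 with chloroquine, 5.86, 5.94 and 6.18 with ADI-PEG20, and 6.14, 5.62 and 6.17 with both drugs. Untreated 3 lay above ADI-PEG20 1 and doubly treated 2, so the groups overlapped. It was higher by 0.44 (SE 0.19) with ADI-PEG20, 0.42 (SE 0.19) with both and 0.19 (SE 0.19) with chloroquine. Ctsz, a carboxypeptidase, was 6.53, 6.86 and 6.87 log2 CPM without treatment, 6.86, 6.99 and 7.06 with chloroquine, 7.05, 6.92 and 7.38 with ADI-PEG20, and 7.02, 7.00 and 7.24 with both drugs. All libraries given ADI-PEG20, alone or with chloroquine, lay above the untreated ones. The difference was 0.36 (SE 0.15, unadjusted p = 0.035, adjusted p = 0.58) with ADI-PEG20 and 0.33 (SE 0.15, unadjusted p = 0.051, adjusted p = 0.58) with both, and 0.22 (SE 0.15) with chloroquine.

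Ctsb and Ctsl, broad endopeptidases, were lower with chloroquine and higher with both drugs, without passing the test. Ctsb was 9.52, 9.78 and 9.35 log2 CPM without treatment, 9.31, 9.34 and 9.37 with chloroquine, 9.52, 9.52 and 9.65 with ADI-PEG20, and 9.85, 9.56 and 9.78 with both drugs. The chloroquine libraries were close together near the lowest untreated value, below all libraries with ADI-PEG20. Its difference was -0.21 (SE 0.15) with chloroquine, 0.18 (SE 0.15) with both, and 0.39 (SE 0.15, unadjusted p = 0.018, adjusted p = 0.64) for both against chloroquine. Ctsl was 7.72, 7.95 and 7.72 log2 CPM without treatment, 7.27, 7.49 and 7.62 with chloroquine, 7.13, 7.81 and 8.33 with ADI-PEG20, and 7.76, 8.34 and 7.98 with both drugs. The 3 chloroquine libraries lay below the 3 untreated ones, and the ADI-PEG20 libraries spread over more than 1 log2 unit. The difference was -0.34 (SE 0.25) with chloroquine, 0.23 (SE 0.25) with both, and 0.57 (SE 0.25, unadjusted p = 0.039, adjusted p = 0.71) for both against chloroquine. Of its annotated exon bases, 26.8% are shared with other genes, and whether the counting used strand is not given in the sources used here.

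The remaining peptidases had smaller or more variable differences. Ctsa, the protective protein that stabilises beta-galactosidase and neuraminidase, was higher by 0.52 (SE 0.23, unadjusted p = 0.04, adjusted p = 0.56) with both drugs, with no overlap, and 17.4% of its exon bases are shared with other genes. Ctsd, the main aspartic protease of the lysosome, of whose exon bases 34.4% are shared with another gene, was above untreated by 0.03 to 0.22 in the 3 comparisons. Ctsk, the collagen-degrading cathepsin of osteoclasts, was above it by 0.17 to 0.25. In untreated tumors the level of Ctsd per length was 293 CPM per kb (269 to 309), between that of Psap at 368 CPM per kb (345 to 390) and that of Lamp1 at 193 CPM per kb (183 to 200), without overlap between the 3 and ahead of all other members. Ctss at 125 CPM per kb (91.5 to 166) and Ctsb at 125 CPM per kb (108 to 145) came next and overlapped. Lengths are the union of annotated exons, used or not. Other members that share over 10% of exon bases with another gene are Sgsh (21.6%), Arsa (18.8%), Ctsb (12.8%) and Hexa (12.8%).

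The glycosidases and sulfatases, which take sugars and sulfates off glycoproteins, glycolipids and glycosaminoglycans, were higher for 9 of 11 with both drugs (median 0.23), 8 of 11 with ADI-PEG20 (median 0.16) and 5 of 11 with chloroquine (median -0.05).

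Man2b1, the alpha-mannosidase (chr8:85083270-85098282, plus strand), had the smallest p of any member with ADI-PEG20. It was 6.63, 6.58 and 7.08 log2 CPM without treatment, 7.03, 6.98 and 7.26 with chloroquine, 7.24, 7.10 and 7.48 with ADI-PEG20, and 7.26, 7.10 and 7.36 with both drugs. Untreated 3 stood above the other untreated libraries and just below all libraries that received ADI-PEG20, and it lay within the chloroquine range. The differences were 0.51 (SE 0.16, unadjusted p = 0.0083, adjusted p = 0.52) with ADI-PEG20, 0.48 (SE 0.16, unadjusted p = 0.012, adjusted p = 0.47) with both and 0.33 (SE 0.16, unadjusted p = 0.067, adjusted p = 0.999) with chloroquine.

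Gaa, which degrades glycogen, was 7.01, 6.96 and 7.54 log2 CPM without treatment, 7.50, 7.35 and 7.94 with chloroquine, 8.08, 7.25 and 7.69 with ADI-PEG20, and 7.66, 7.47 and 7.70 with both drugs. Untreated 3 lay within each treated group, so the groups overlapped. It was higher by 0.50 (SE 0.22), 0.43 (SE 0.22) and 0.44 (SE 0.22) with ADI-PEG20, chloroquine and both. Arsb, which removes sulfate from dermatan and chondroitin sulfate, was 4.53, 4.24 and 4.93 log2 CPM without treatment, 5.01, 4.92 and 5.18 with chloroquine, 5.44, 4.79 and 5.32 with ADI-PEG20, and 5.20, 4.50 and 4.98 with both drugs. Untreated 3 again reached into the treated range. It was higher by 0.62 (SE 0.23, unadjusted p = 0.02, adjusted p = 0.54) with ADI-PEG20, 0.47 (SE 0.23) with chloroquine and 0.33 (SE 0.23) with both, and its interaction was -0.76 (SE 0.33, unadjusted p = 0.038, adjusted p = 0.82). Of its exon bases, 39.9% are shared with genes on the other strand, the largest share among members.

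Glb1, the beta-galactosidase often used as a senescence stain (chr9:114401076-114474898, plus strand), was a member that was lower in all 3 comparisons. Its levels were 5.31, 5.08 and 5.26 log2 CPM without treatment, 5.19, 5.16 and 4.95 with chloroquine, 4.94, 4.67 and 4.93 with ADI-PEG20, and 5.12, 5.06 and 5.18 with both drugs. The ADI-PEG20 libraries lay below all others, by a narrow margin below the lowest chloroquine library. The difference was -0.37 (SE 0.15, unadjusted p = 0.025, adjusted p = 0.55) with ADI-PEG20, a 0.78-fold level, and -0.12 with chloroquine and -0.09 with both. Against ADI-PEG20, the combination was higher by 0.28 (SE 0.15, unadjusted p = 0.08, adjusted p = 0.89), and the interaction was 0.39 (SE 0.21, unadjusted p = 0.078, adjusted p = 0.82).

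Sgsh, which removes sulfate from heparan sulfate, differed by 0.68 (SE 0.31, unadjusted p = 0.046, adjusted p = 0.6) with ADI-PEG20, the widest difference of any member there. However, its ADI-PEG20 libraries ranged from 3.62 to 4.67 log2 CPM and overlapped the untreated ones. The highest was ADI-PEG20 1, the library that stood apart, against 3.62 and 3.88 in the others. Sgsh had as few as 160 reads in a library. Naglu, of the same pathway, differed by -0.23 (SE 0.21) with chloroquine and 0.25 (SE 0.21) with both drugs, in each case without overlap, and its untreated libraries were within 4.26 to 4.30. Neu1, the neuraminidase, differed by -0.08, -0.15 and -0.29 with ADI-PEG20, chloroquine and both. Gla, Hexa, Gusb and Arsa differed from untreated by between -0.17 and 0.23, and none had an unadjusted p under 0.05.

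Genes of lysosomal lipid handling were higher for 6 of 6 members with ADI-PEG20 (median 0.09) and with both (median 0.27), and for 4 of 6 with chloroquine (median 0.07). Ppt1, the palmitoyl-protein thioesterase that strips fatty acids from proteins (chr4:122836242-122859175, plus strand), had the smallest p of any member with both drugs. It was 5.19, 4.90 and 5.47 log2 CPM without treatment, 5.19, 5.51 and 5.38 with chloroquine, 5.37, 5.58 and 6.02 with ADI-PEG20, and 6.03, 5.86 and 5.99 with both drugs. The doubly treated libraries lay above every untreated and chloroquine library, with ADI-PEG20 3 among them. The difference was 0.77 (SE 0.19, unadjusted p = 0.0013, adjusted p = 0.32), or 1.71-fold, and ranked 66 by p among all genes. It was 0.47 (SE 0.19, unadjusted p = 0.028, adjusted p = 0.56) with ADI-PEG20, 0.17 (SE 0.19) with chloroquine, and 0.60 (SE 0.19, unadjusted p = 0.0072, adjusted p = 0.54) for both against chloroquine. In the authors' deposited table the log2 fold change of Ppt1 with both against no treatment is 0.72 (adjusted p = 0.22).

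Asah1, the acid ceramidase, was 6.98, 6.76 and 6.81 log2 CPM without treatment and 7.40, 7.27 and 7.48 with both drugs. These groups did not overlap, and the ADI-PEG20 libraries ranged from 6.45 to 7.43 across both. The difference with both drugs was 0.53 (SE 0.20, unadjusted p = 0.019, adjusted p = 0.51), and 0.09 and 0.03 with ADI-PEG20 and chloroquine. Lipa, the acid lipase for cholesteryl esters and triglycerides, was 5.89, 5.45 and 5.91 log2 CPM without treatment, 5.89, 5.85 and 5.81 with chloroquine, 5.61, 5.73 and 6.17 with ADI-PEG20, and 6.22, 5.81 and 6.15 with both drugs. All groups overlapped, and it differed by 0.09 with ADI-PEG20 (-0.08 without ADI-PEG20 3), 0.10 with chloroquine and 0.31 (SE 0.18) with both. The cholesterol exporters Npc1 and Npc2 were higher by 0.23 and 0.23 with both drugs, without overlap. Psap, the precursor of the saposin cofactors and the most abundant member per length, differed by 0.12, -0.02 and 0.13 with ADI-PEG20, chloroquine and both.

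Membrane proteins were split. With both drugs 5 of 7 were higher (median 0.38), with ADI-PEG20 5 of 7 (median 0.13) and with chloroquine 3 of 7 (median -0.01). Scarb2, the receptor that carries glucocerebrosidase to lysosomes (chr5:92441314-92506833, minus strand), was 5.67, 5.49 and 5.81 log2 CPM without treatment, 5.99, 5.86 and 5.94 with chloroquine, 6.05, 5.90 and 6.20 with ADI-PEG20, and 6.28, 5.85 and 6.17 with both drugs. All 9 treated libraries lay above the highest untreated one. The differences were 0.39 (SE 0.15, unadjusted p = 0.022, adjusted p = 0.54), 0.27 (SE 0.15, unadjusted p = 0.093, adjusted p = 0.999) and 0.45 (SE 0.15, unadjusted p = 0.011, adjusted p = 0.47) with ADI-PEG20, chloroquine and both. Lamp1, the abundant membrane glycoprotein whose promoter holds 4 core motifs, did not overlap untreated with ADI-PEG20 or with both, where it differed by 0.17 (SE 0.13) and 0.18 (SE 0.13), and it was at -0.01 with chloroquine. Lamp2 and Laptm4a were higher with both by 0.38 (SE 0.22) and 0.39 (SE 0.24), also without overlap. Cln3, the membrane protein of juvenile Batten disease, differed by 0.48, 0.27 and 0.38, and its untreated libraries ranged from 3.37 to 4.77. The tetraspanin Cd63 was lower in all 3 comparisons, with differences of -0.40 (SE 0.25) with ADI-PEG20, -0.31 with chloroquine and -0.15 with both, and untreated 1 at 8.90 log2 CPM was its highest library. Mcoln1, the calcium channel TRPML1, differed by -0.22 with both, -0.12 with chloroquine and 0.003 with ADI-PEG20.

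The macrophage-rich members were set beside the widely expressed hydrolases. With ADI-PEG20, 7 of 7 macrophage-rich genes were higher (median 0.44), against 14 of 18 widely expressed hydrolases (median 0.14). With both drugs the counts were 7 of 7 (median 0.42) and 16 of 18 (median 0.23). With chloroquine they were 6 of 7 (median 0.19) and 9 of 18 (median -0.00046). Whether the medians of the classes differ was not tested. Without ADI-PEG20 3, the ADI-PEG20 counts were 6 of 7 (median 0.26) and 10 of 18 (median 0.04). The summed level of the 7 ran from 727 to 972 CPM without treatment, 889 to 1123 with chloroquine, 977 to 1217 with ADI-PEG20 and 986 to 1246 with both, so the chloroquine range overlapped the untreated one and the other ranges began just above it. That of the 18 ran from 2629 to 2847, 2572 to 2733, 2620 to 3450 and 3014 to 3484 CPM in the same order, and only the doubly treated range lay apart from the untreated one.

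Grn, which encodes the progranulin protein that lysosomes cut into granulins, was 7.92, 8.24 and 8.46 log2 CPM without treatment, 8.51, 8.43 and 8.70 with chloroquine, 8.68, 8.24 and 8.57 with ADI-PEG20, and 8.62, 8.32 and 8.54 with both drugs. Untreated 1 was lowest, and all treated groups overlapped untreated 3. It was higher by 0.34 (SE 0.17) with chloroquine, 0.29 (SE 0.17) with ADI-PEG20 and 0.29 (SE 0.17) with both. Gpnmb, a glycoprotein of lipid-laden macrophages and a known MiT target (chr6:49036546-49070929, plus strand), was 4.33, 4.03 and 3.86 log2 CPM without treatment, 3.92, 3.52 and 3.96 with chloroquine, 4.54, 4.63 and 4.51 with ADI-PEG20, and 4.48, 4.90 and 4.19 with both drugs. It was the macrophage-rich member that was lower with chloroquine. All ADI-PEG20 libraries lay above all untreated ones, and the doubly treated libraries lay above all chloroquine ones. The differences were 0.49 (SE 0.21, unadjusted p = 0.038, adjusted p = 0.59) with ADI-PEG20, -0.27 (SE 0.21) with chloroquine, 0.45 (SE 0.21) with both, and 0.72 (SE 0.21, unadjusted p = 0.0045, adjusted p = 0.53) for both against chloroquine.

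**Figure D3:**
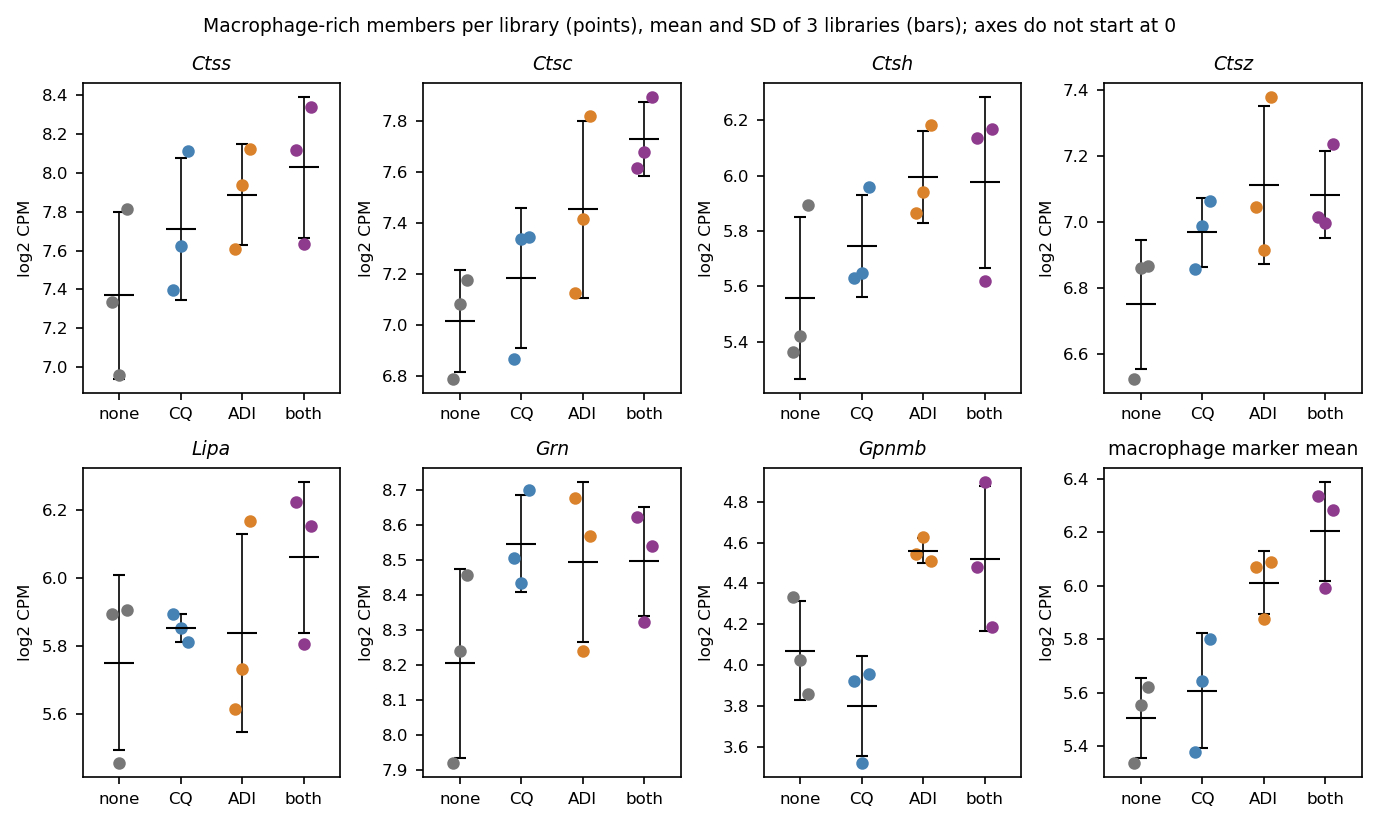
Level in log2 CPM (y axis, not starting at 0) of the 7 macrophage-rich members and the mean of 19 macrophage markers in each of 12 libraries. Points are libraries without treatment (none), with chloroquine (CQ), ADI-PEG20 (ADI) or both, and bars are the mean and SD of 3. The marker mean is at least 5.88 in every library given ADI-PEG20 and at most 5.80 in every other, while most members overlap between groups.

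Across the 12 libraries the members followed the macrophage marker mean to different degrees. All 19 markers, none of them a member and none at 0 reads, entered the mean. It was 5.34 to 5.62 log2 CPM without treatment, 5.38 to 5.80 with chloroquine, 5.88 to 6.09 with ADI-PEG20 and 5.99 to 6.33 with both. Pearson's r with this mean was above 0 for 36 of 39 members, where 48.4% of 16316 genes were above 0. At an unadjusted permutation p under 0.05, 17 members were positive and 0 negative (7.75% and 5.77% of genes). Libraries were permuted across treatments, so these p-values also reflect differences between treatments. After adjustment over 16316 genes, 0 passed. The median r was 0.74 for the macrophage-rich members, 0.56 for the widely expressed hydrolases, 0.42 for the other 14 members and -0.02 for all genes tested. On deviations from group means, which leave out the differences between treatments, the medians were 0.61, 0.37, 0.30 and -0.01. The r within groups was not tested. Libraries share depth and composition effects across genes, so these r are descriptions.

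Ctsc had the highest r at 0.85 (n = 12, permutation p = 0.00073, adjusted p = 0.11), with a rho of 0.85 (permutation p = 0.00084, adjusted p = 0.12). Without the libraries farthest from the median, untreated 1 and doubly treated 1, its r was 0.83, and within groups 0.56. Ppt1 and Tpp1, both classed as widely expressed, came next. Ppt1 had an r of 0.83 (permutation p = 0.0010, adjusted p = 0.13) and a rho of 0.85 (permutation p = 0.00099, adjusted p = 0.12), and its r was 0.78 without those libraries and 0.38 within groups. For Tpp1 the r was 0.83 (permutation p = 0.00097, adjusted p = 0.12) and the rho 0.90 (permutation p = 0.00012, adjusted p = 0.093), with an r of 0.83 without them and 0.36 within groups. Mitf had an r of 0.77 (permutation p = 0.0040, adjusted p = 0.16) and a rho of 0.75 (permutation p = 0.0069, adjusted p = 0.21), with 0.68 and 0.41 on the reduced and within-group data. Tfeb had an r of 0.31 (permutation p = 0.32, adjusted p = 0.71) and a rho of 0.34 (permutation p = 0.28, adjusted p = 0.66), but 0.68 within groups. Gpnmb had an r of 0.51 over all libraries and -0.60 within groups, the widest gap of the macrophage-rich class. Cd63 (-0.39), Glb1 (-0.36) and Neu1 (-0.10) were the 3 members below 0.

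**Figure D4:**
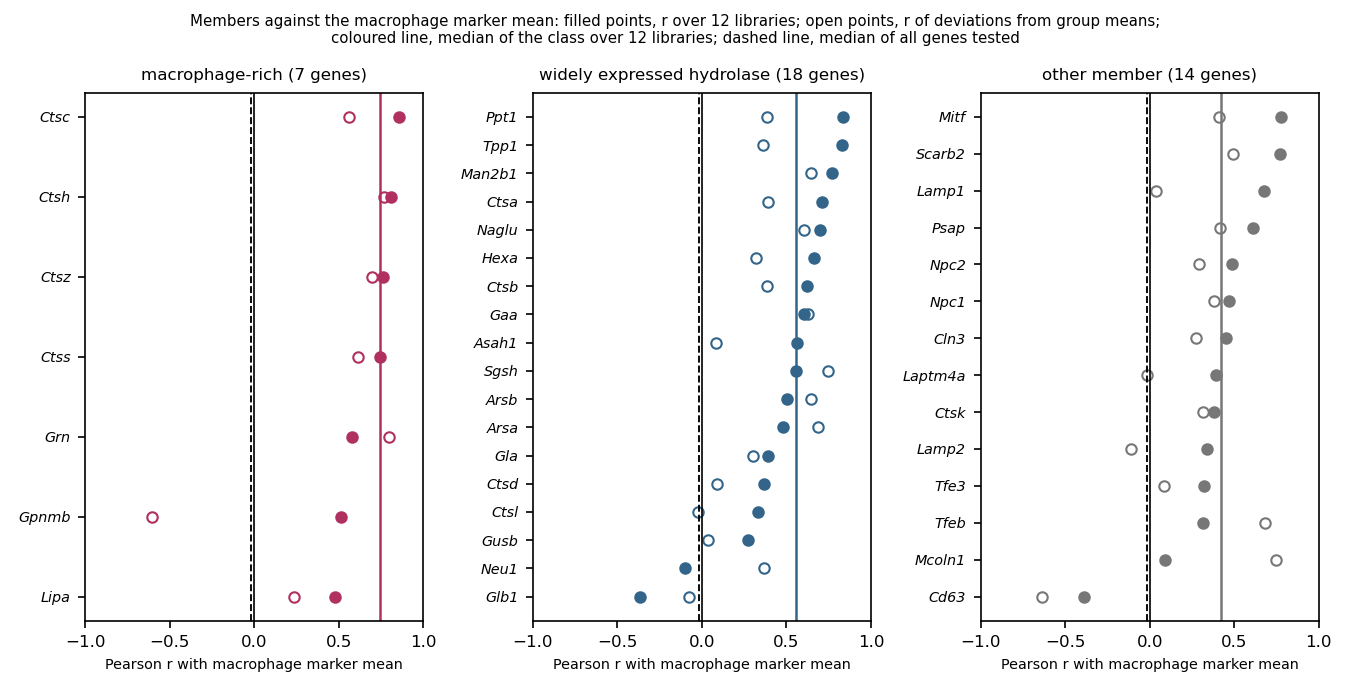
Pearson r (x axis) of each member (rows) with the macrophage marker mean, in 3 classes of 7, 18 and 14 genes. Filled points use the 12 libraries, open points the deviations from group means, coloured lines are class medians (0.74, 0.56 and 0.42) and the dashed line is the median of all genes tested (-0.02). Most filled points lie well right of the dashed line in all 3 classes.

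Other lysosomal genes, from lists that hold none of the members, were counted in the same way. Of 26 further hydrolases and cofactors, 22 were higher with both drugs (median 0.29), 20 with ADI-PEG20 (median 0.16) and 19 with chloroquine (median 0.08). At an unadjusted p under 0.05, 7, 7 and 1 were higher, against 4.70%, 5.17% and 2.06% of all genes, and 0 were lower in each. The count with chloroquine is near that of all genes. Acp2, a lysosomal acid phosphatase, was higher by 0.65 (SE 0.18, adjusted p = 0.38) with both and 0.55 (SE 0.18, adjusted p = 0.52) with ADI-PEG20 in limma's test. Gm2a, the cofactor that presents ganglioside to hexosaminidase, was higher by 0.68 (SE 0.19) in each. Pla2g15, the lysosomal phospholipase A2 inhibited by cationic amphiphilic drugs, was higher by 0.55 with chloroquine (SE 0.19, unadjusted p = 0.012, adjusted p = 1.0), and Ctsf differed by -0.56 there (SE 0.40). Of 19 further membrane proteins, 15, 13 and 13 were higher with both, ADI-PEG20 and chloroquine (medians 0.16, 0.17 and 0.05), and at an unadjusted p under 0.05 these were 3, 1 and 0 (4.70%, 5.17% and 2.06% of all genes), with 0 lower. The count with ADI-PEG20 is near that of all genes. Cd68 is in this list and among the macrophage markers, and Acp5 is among the further hydrolases and the osteoclast markers.

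The authors' deposited table of KEGG gene sets holds a Lysosome set of 117 genes, 34 of them members. Its deposited p-value is 0.0025 for both drugs against no treatment (adjusted p = 0.041, 15 by rank among 246 sets), 0.047 for ADI-PEG20 (adjusted p = 0.51) and 0.30 for chloroquine (adjusted p = 0.99). Among the genes that the authors' deposited table lists, 0 of the 39 members have an adjusted p under 0.05 in any of its 6 comparisons. Over all genes it lists, 1 is under 0.05 for both drugs against chloroquine and 0 in each other comparison.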

How the data were processed

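The 12 libraries were compared as 4 groups of 3, by the treatment in the labels. Per the file headers and values, the authors deposited log2 CPM per gene and library, log2 fold changes, p-values per gene and per KEGG gene set, and scores (signed linear fold changes and a set score). Per the submitters' processing notes, the build was mm10 and the tools were limma, edgeR, Salmon 0.8.2, STAR 2.5.1a, featureCounts 1.4.6-p5 of Subread, and bcl2fastq. Their roles, the strand setting and the set test are not given in the sources used here. Of 16386 lines, 51 repeats were dropped, leaving 16335 genes. Genes with few reads had been left out before deposit: the lowest total of a gene was 85 reads.

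The deposited log2 CPM hold reads plus 0.5, scaled to an effective library size. Reads were recovered from the steps between low values. All values under 2000 reads (100.0%) were within 0.02 of a whole number, and 1 read was worth 0.0320 to 0.0794 CPM, which limits the precision of low genes. Differences were tested on the deposited log2 CPM with limma 3.58.1 in R 4.3.3 (moderated statistics with a trend in expression, all 12 libraries in 1 fit, two-sided, Benjamini-Hochberg over 16335 genes, threshold 0.05). The script was tested on simulated data. Correlations with the mean of 19 macrophage markers used 100000 permutations of the libraries, two-sided, adjusted over 16316 genes with the markers left out.

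Values in every library are given for the MiT factors, the macrophage-rich members, and the 6 members with the smallest p in each comparison with untreated tumors and in the interaction. Other members are given by their differences, and from each direction and comparison the 2 other lysosomal genes with the smallest p are named. Gene positions and exon lengths are from GENCODE M21 (GRCm38), and promoters from RefSeq (GRCm38.p6). The members and lists were chosen with earlier results of these data known. Alternatives were voom on recovered reads with and without library quality weights, no trend, a filter at a mean log2 CPM of 1, 2 added reads, centred medians, quantile normalization, a replicate block, only the groups compared, and each library left out. Counts over the members under each alternative were added after seeing the data.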

Additional observations from a re-analysis of the deposited data

How the results depend on the processing

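No member passed an adjusted p of 0.05 in limma under any alternative, over 71 named member differences and 1485 alternative values (smallest adjusted p = 0.088). Over all genes, the count past the threshold moved from 0 to 8 for both drugs against untreated with the replicate block. For both drugs against chloroquine it moved to 1 with voom and library quality weights, to 72 with only the groups compared, and ranged from 0 to 1 with a library left out (1 without ADI-PEG20 3). For ADI-PEG20 against untreated it ranged from 0 to 1 (1 without untreated 3). The cause was not tested. With the replicate block the other comparisons stayed at 0. The labels do not say that equal numbers pair libraries. Deviations of same-numbered libraries correlated at -0.05 to 0.20 over 18 pairs (median 0.10), those of other numbers at -0.24 to 0.19 over 36, and 10 of 12 libraries were closest to their own number, a hint from the data and not the design.

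Both drugs against untreated gave 34 to 36 members higher over 21 alternatives, ADI-PEG20 24 to 35 and chloroquine 20 to 26. The direction reversed in 18 values over 9 differences. Of these 9, the main fit gave the largest difference for Mitf with ADI-PEG20. The range with each library left out was widest for Ctsl with ADI-PEG20. Ctsb with ADI-PEG20 was -0.024 with centred medians, Ctsl with ADI-PEG20 was 0.19 with voom and library quality weights, and Tfe3 with chloroquine was 0.0028 with quantile normalization. With each library left out, the range with ADI-PEG20 was -0.084 to 0.13 for Ctsb, -0.33 to 0.27 for Ctsl, -0.078 to 0.20 for Lipa and -0.011 to 0.38 for Mitf. With chloroquine it was -0.046 to 0.18 for Lipa, -0.22 to 0.011 for Mitf, -0.17 to 0.14 for Tfe3 and -0.013 to 0.084 for Tpp1. For Tfeb with both drugs it was -0.036 to 0.23. The core motif was in 8 of 35 members (22.9%), and in 1352 of 27025 genes, in the last 100 bases before and 50 after the start. Groups of 3 limit the precision of every difference.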

Other observations

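Genes that sort enzymes to the lysosome, and genes upstream of the MiT factors listed with a further MiT factor, were counted in the same way. Whether their counts differ from the members' was not tested. Of 12 genes of mannose 6-phosphate sorting, 5 were higher with ADI-PEG20, 8 with chloroquine and 8 with both drugs (medians -0.03, 0.09 and 0.08). Sort1, the sorting receptor sortilin, was higher by 1.08 with chloroquine (SE 0.35, unadjusted p = 0.0079, adjusted p = 1.0 in limma), without overlap, and by 0.88 and 0.90 with ADI-PEG20 and both, where libraries overlapped. The adaptor subunits Ap1g1 (-0.24 with ADI-PEG20), Ap1b1 (-0.19 with chloroquine) and Ap1m1 (-0.19 with both) and the adaptor Gga1 (-0.24 with both) had the smallest p-values among lower genes, none under 0.05.

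The other list was of regulators of the MiT factors together with Tfec, itself a MiT factor. Of its 17 genes in the data, 8, 6 and 11 were higher with ADI-PEG20, chloroquine and both (medians -0.01, -0.09 and 0.08). Ppp3cb, a catalytic subunit of calcineurin, which dephosphorylates TFEB, differed by -0.36 with ADI-PEG20 (SE 0.16, unadjusted p = 0.047, adjusted p = 0.60 in limma). The interaction was above 0 for 15 of the 17 (median 0.23), where 50.4% of all genes were. Among the lists of other lysosomal genes, the interaction is reported for this one only. Fnip1, a partner of folliculin in nutrient sensing at the lysosome, was chosen after its values were seen. Its interaction was 0.71 (SE 0.25, unadjusted p = 0.013, adjusted p = 0.82 in limma), and it was higher with both drugs than with ADI-PEG20 by 0.50 without overlap.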
